A study of Mus musculus with 4 samples.

Results

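Toll-like receptors are transmembrane proteins that recognise conserved microbial molecules, and 10 of their genes in the mouse, Tlr1 to Tlr9 and Tlr13, are described here in colonic mucosa of Itch knockout (KO) and wild-type (WT) mice. They were found by symbol in the count file of the first WT library, which lists 19308 genes, and by identifier in the other 3 files, and all 10 were present in every file. Tlr11 and Tlr12 are listed there as well and were not taken as members. The series is RNA sequencing of total RNA with 2 Itch KO and 2 WT libraries. The Itch KO libraries came from mucosa described as inflamed in mice without Itch, the gene of the E3 ubiquitin ligase ITCH. The WT libraries came from C57BL/6 mice, although the sample labels give the state of inflammation for all 4 libraries. The labels record neither sex nor age, nor the kind of knockout allele and its strain background. They also do not say whether the libraries of a group are separate animals, and every p-value below measures the spread between libraries, which may be technical.

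The receptors fall into 2 classes by where the protein works. Tlr1, Tlr2, Tlr4, Tlr5 and Tlr6 encode receptors of the cell surface, which bind bacterial lipoproteins, lipopolysaccharide and flagellin. Tlr3, Tlr7, Tlr8, Tlr9 and Tlr13 encode receptors of endosomes, which bind nucleic acids of microbes. Most of them signal through the adaptor MyD88, and TLR3 through TRIF, towards NF-kB and interferon regulatory factors. In the gut, myeloid cells, B cells and epithelial cells each carry some of these receptors.

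In total, 8181193 and 9463759 counts fell on the 19308 shared genes in Itch KO libraries 1 and 2, and 9674531 and 12199709 in WT libraries 1 and 2. Itch itself was at 11.9 and 13.4 CPM (counts scaled to library size with TMM factors) in the Itch KO libraries and at 204 and 183 CPM in the WT libraries. Of 16956 genes tested by edgeR's quasi-likelihood test, 0 passed a Benjamini-Hochberg adjusted p of 0.05, which is 0% in either direction, while 19.7% had an unadjusted p below 0.05. limma voom also called 0%. Calls of DESeq2, an alternative, are given as such because edgeR made none. Squamous epithelium markers were high in WT library 1 alone, with a summed level of 32.8 and 53.8 CPM in the Itch KO libraries against 848 and 35.9 CPM in the WT libraries. Krt13, the highest of them, was at 11.3 and 16.7 CPM against 123 and 0.81 CPM. Xist was at 461 and 349 CPM in the Itch KO libraries and 654 and 555 CPM in the WT libraries, and of the 4 Y-linked genes looked for 3 had no count in any library.

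All 10 receptor genes passed the filter on low counts, and none was called by edgeR. At an unadjusted p below 0.05, edgeR had 3 of the 10 higher (Tlr6, Tlr9 and Tlr13) and 1 lower (Tlr5), beside 10.2% of all tested genes higher and 9.5% lower. DESeq2 called Tlr9 and Tlr13 higher and Tlr5 lower in Itch KO mucosa, where it called 5.25% of all tested genes higher and 4.81% lower. Both Itch KO libraries lay above both WT libraries for 6 receptors, beside 30% of all tested genes, and below both for 1, beside 26%. The groups overlapped for the other 3 receptors. In bulk tissue, more cells of a type and more RNA per cell cannot be told apart.

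The upstream sequences of 4 receptors are shown because Tlr5, Tlr9 and Tlr13 are the genes DESeq2 called, and Tlr2 had an NF-kB match and the widest SD within WT of the 10. They come from RefSeq (GRCm38.p6), which held windows for 8 of the 10 members, and run 5′ to 3′ on the strand of the gene. Each ends before the first base of the gene in both RefSeq and GENCODE M21. Capitals mark matches on either strand to 4 patterns. These were GGG and CC with 5 free bases between them (NF-kB), a pair of GAAA words with 2 free bases between them (IRF), TGANTCA (AP-1) and GAGGAAG (PU.1).
Tlr2, chr3:83841768-83841858, minus strand: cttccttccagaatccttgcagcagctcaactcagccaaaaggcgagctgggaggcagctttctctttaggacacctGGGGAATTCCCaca
Tlr5, chr1:182954538-182954787, plus strand: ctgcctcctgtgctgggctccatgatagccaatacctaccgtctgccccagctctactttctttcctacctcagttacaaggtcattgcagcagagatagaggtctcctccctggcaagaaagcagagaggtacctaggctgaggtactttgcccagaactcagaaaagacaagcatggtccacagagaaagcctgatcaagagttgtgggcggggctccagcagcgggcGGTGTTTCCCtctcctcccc
Tlr9, chr9:106222348-106222597, plus strand: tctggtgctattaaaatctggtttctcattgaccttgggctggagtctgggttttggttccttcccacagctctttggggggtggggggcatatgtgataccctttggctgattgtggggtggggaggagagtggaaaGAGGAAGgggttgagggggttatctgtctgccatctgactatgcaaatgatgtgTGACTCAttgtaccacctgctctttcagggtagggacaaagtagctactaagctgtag
Tlr13, chrX:106143025-106143203, plus strand: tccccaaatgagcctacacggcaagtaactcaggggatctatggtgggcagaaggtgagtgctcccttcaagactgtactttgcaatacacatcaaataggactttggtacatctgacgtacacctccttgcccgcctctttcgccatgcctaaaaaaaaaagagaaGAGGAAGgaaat

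Over the 250 bases before the RefSeq start, the NF-kB pattern occurred in 45.8% of 32851 mouse promoter windows, the PU.1 pattern in 10.6%, the AP-1 pattern in 6.75% and the IRF pattern in 2.98%. In Tlr2, 2 overlapping NF-kB matches began 173 and 172 bases before the start, and in Tlr5 the match began 20 bases before it. The PU.1 pattern, the letters bound by a factor of myeloid and B cells, began 112 bases before the start of Tlr9 and 83 bases before that of Tlr13. Tlr9 also held an AP-1 match 58 bases before its start. All these positions count from the RefSeq start. For Tlr2 and Tlr13 it lies inside the GENCODE gene, so the printed stretch ends upstream of it. Of the windows not printed, 1 of the 2 of Tlr1 held the PU.1 pattern, Tlr6 held 2 overlapping IRF matches in one window and an NF-kB match in the other, Tlr3 held 2 NF-kB matches and Tlr8 held none of the 4 patterns. The Tlr3 window and the Tlr6 window with the IRF matches lay inside the GENCODE gene. A match describes letters and does not show that a factor was bound.

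**Figure D1:**
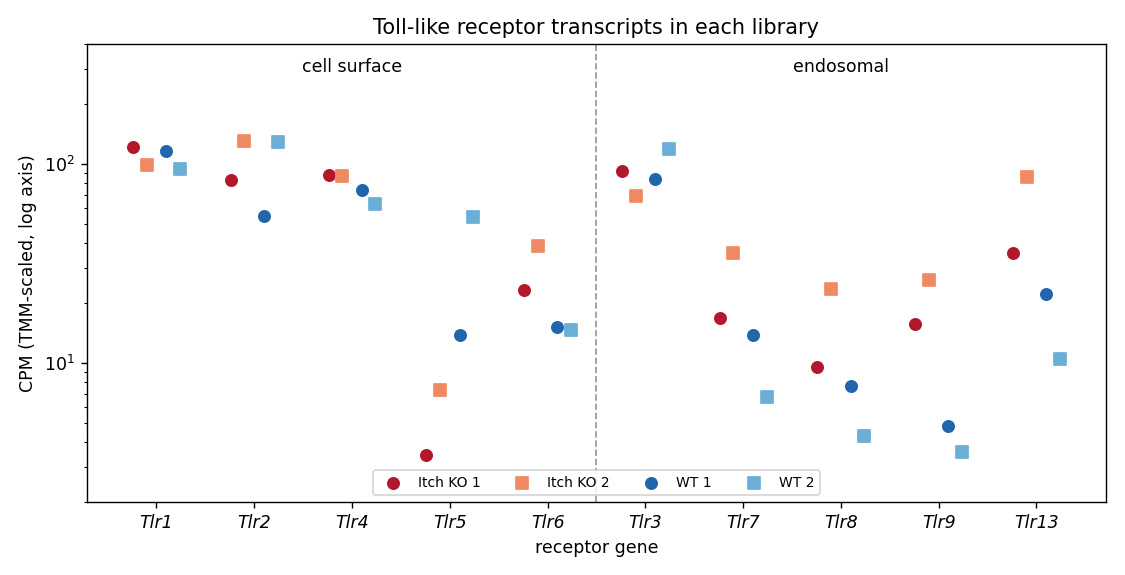
CPM of each receptor gene (log axis) in the 4 libraries, Itch KO libraries left of WT libraries, with surface receptors on the left and endosomal receptors on the right. Both Itch KO points lie above both WT points for Tlr4, Tlr6, Tlr7, Tlr8, Tlr9 and Tlr13 and below both for Tlr5.

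Of the 5 surface receptors 2 were higher in both Itch KO libraries, 1 was lower in both and 2 overlapped. Over all tested genes 30% were higher and 26% lower in both. By sign, 4 of the 5 log2 fold changes were positive. Tlr1 and Tlr6 encode partners with which TLR2 binds lipoproteins. Tlr1 stood at 122 and 98.3 CPM in Itch KO libraries 1 and 2 and at 116 and 94.8 CPM in WT libraries 1 and 2. The groups overlapped, the first library of each group being the higher, and the log2 fold change was 0.06 (SE 0.18, edgeR adjusted p = 0.864). Tlr2 was at 82.7 and 130.0 CPM in the Itch KO libraries against 54.5 and 129 CPM in the WT libraries. Here too the groups overlapped, and the second library of each group was the higher. Its log2 fold change was 0.21 (SE 0.48, edgeR adjusted p = 0.826), with a mean of 106 ± 33.5 CPM in Itch KO and 91.8 ± 52.7 CPM in WT mucosa (SD, n = 2 each). The sign of both fold changes turned when single libraries were left out.

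Tlr6 had 23.2 and 38.6 CPM in the Itch KO libraries against 15.2 and 14.7 CPM in the WT libraries. The WT libraries nearly coincided and both Itch KO libraries lay above them, for a mean of 30.9 ± 10.9 CPM in Itch KO and 14.9 ± 0.34 CPM in WT (SD, n = 2 each) and a log2 fold change of 1.05 (SE 0.36, edgeR adjusted p = 0.233, DESeq2 adjusted p = 0.17). Without Itch KO library 2 the fold change was 0.65. Tlr6 and Tlr1 are neighbours on chromosome 5 (GRCm38, minus strand), and 13.6% of the 50-base words of Tlr1 transcripts also occur in Tlr6. Reads of that stretch could be missing from both counts or assigned to the wrong gene.

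Tlr4 encodes the lipopolysaccharide receptor. It was at 87.7 and 86.9 CPM in the Itch KO libraries and at 73.6 and 62.8 CPM in the WT libraries, so that the Itch KO libraries lay close together and above both WT libraries. Itch KO libraries averaged 87.3 ± 0.62 CPM and WT libraries 68.2 ± 7.62 CPM (SD, n = 2 each), the log2 fold change 0.36 (SE 0.14) and the edgeR adjusted p 0.27. This was the smallest non-overlapping difference among the receptors.

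Tlr5, the flagellin receptor, ran the other way. It had 3.44 and 7.33 CPM in the Itch KO libraries, from 28 and 71 counts, against 13.8 and 53.9 CPM in the WT libraries, from 129 and 661 counts. Both Itch KO libraries lay below both WT libraries, and the WT libraries themselves differed by a factor of 3.91. The log2 fold change was -2.64 (SE 0.85), with an adjusted p of 0.217 by edgeR and of 0.0122 by DESeq2. That DESeq2 call was lost without Itch KO library 1 (adjusted p = 0.19) and without WT library 2 (adjusted p = 0.895), where the log2 fold change was -1.38. Paneth cells and other epithelial cells are known to carry Tlr5 in the mouse. Summed markers of colon epithelium were 2048 and 1560 CPM in the Itch KO libraries against 1913 and 1653 CPM in the WT libraries. Of the 10 markers 9 overlapped, beside 7453 of the 16956 tested genes. All 10 markers were at or above the 90.4th percentile of read density among tested genes, where counts may be compressed, so this overlap does not show equal amounts of epithelium. The part of the epithelium in the Tlr5 difference was not tested. Reg4, the highest of the Paneth and deep crypt markers, was at 96.2 and 67.0 CPM against 89.9 and 51.5 CPM. The defensin gene Defa24 on that list had 2 and 0 counts in Itch KO and 1 and 3 in WT libraries, too few to test. The other defensin gene on it, Defa17, was not listed.

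Among the endosomal receptors, 4 of the 5 were higher in both Itch KO libraries, beside 30% of all tested genes. Tlr9, the receptor for unmethylated CpG DNA, had the largest positive log2 fold change of the 10 genes, 2.32 (SE 0.49). It was at 15.7 and 26.0 CPM in the Itch KO libraries, from 128 and 252 counts, and at 4.8 and 3.59 CPM in the WT libraries, from 45 and 44 counts. The groups were well apart, with a mean of 20.9 ± 7.28 CPM in Itch KO and 4.19 ± 0.86 CPM in WT (SD, n = 2 each), a ratio of 4.98. The adjusted p was 0.138 by edgeR and 0.00291 by DESeq2. Leaving out a library ended the DESeq2 call in 3 of 4 cases, with adjusted p of 0.0682 without Itch KO library 1, 0.587 without Itch KO library 2 and 0.162 without WT library 2. The fold change kept its sign in each.

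B cells carry Tlr9 in the mouse, and their markers differed more than Tlr9 did. All 10 B cell markers were higher in both Itch KO libraries, beside 30% of all tested genes. Their summed level was 826 and 846 CPM in the Itch KO libraries against 55.7 and 31.9 CPM in the WT libraries. Cd22, the highest of them, was at 133 and 136 CPM against 9.82 and 5.38 CPM. Plasmacytoid dendritic cells carry Tlr9 as well. Of their 8 markers 4 were higher in both Itch KO libraries, beside 30% of all tested genes, and 4 overlapped. The summed level of the 8 markers was 333 and 405 CPM in Itch KO against 310 and 297 CPM in WT. Tcf4, the highest of them, overlapped at 142 and 170.2 CPM in Itch KO against 182 and 123 CPM in WT. By mean over the 4 libraries, Tcf4 (154 CPM) and Klk1 (51.8 CPM, overlapping too) weighed most in the sum. Siglech (8.23 CPM) weighed little, so the sum mainly follows a few of the markers. The log2 fold changes of this list ran from -0.68 for Pacsin1 to 1.92 for Siglech, both named after their values were seen. The part of these cells in the Tlr9 difference was not tested.

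Tlr13, a mouse receptor for bacterial ribosomal RNA, was at 35.8 and 86.3 CPM in the Itch KO libraries and at 22.3 and 10.4 CPM in the WT libraries. Both Itch KO libraries lay above both WT libraries, and the level differed more than 2-fold within each group. Itch KO libraries averaged 61.0 ± 35.8 CPM and WT libraries 16.4 ± 8.39 CPM (SD, n = 2 each) and the log2 fold change 1.90 (SE 0.61), with an adjusted p of 0.217 by edgeR and 0.0229 by DESeq2. The DESeq2 call ended without Itch KO library 2 (adjusted p = 0.789, log2 fold change 1.12) and without WT library 2 (adjusted p = 0.214).

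Tlr7 and Tlr8, neighbours on the X chromosome, had the same order of libraries as Tlr13, which is X-linked too. Tlr6 on chromosome 5 and Tlr9 on chromosome 9 had that order as well, so it was not particular to X-linked receptors. Tlr7, a receptor for single-stranded RNA, was at 16.8 and 35.8 CPM in the Itch KO libraries and 13.9 and 6.76 CPM in the WT libraries. Its log2 fold change was 1.35 (SE 0.60, edgeR adjusted p = 0.308, DESeq2 adjusted p = 0.229). Tlr8, whose human counterpart senses RNA fragments, was at 9.58 and 23.4 CPM in Itch KO and 7.68 and 4.32 CPM in WT, from 53 to 227 counts. Its log2 fold change was 1.46 (SE 0.66, edgeR adjusted p = 0.312, DESeq2 adjusted p = 0.265). The groups did not overlap for either gene, but the first libraries of the groups lay close to each other, and without Itch KO library 2 the fold changes were 0.72 for Tlr7 and 0.69 for Tlr8.

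The spread within groups was alike for Tlr7, Tlr8 and Tlr13. The level in Itch KO library 2 relative to Itch KO library 1 was 2.13 for Tlr7, 2.45 for Tlr8 and 2.41 for Tlr13, and that in WT library 2 relative to WT library 1 was 0.49, 0.56 and 0.47 for the same genes. Macrophages and monocytes carry these receptors in the mouse. The summed level of 12 macrophage markers was 854 and 1121 CPM in the Itch KO libraries against 719 and 608 CPM in the WT libraries, the same order of libraries, with a ratio of 1.31 between the Itch KO libraries and 0.85 between the WT libraries. Of these markers 8 were higher in both Itch KO libraries, 1 was lower in both and 3 overlapped. Of all tested genes 30% were higher and 26% lower in both. The growth factor receptor gene Csf1r was at 155 and 208 CPM against 89.9 and 61.2 CPM. The group means of the summed markers had a ratio of 1.49, compared with 3.73 for Tlr13, 2.75 for Tlr8 and 2.55 for Tlr7. The markers ranged from the 24.1st (Cd163) to the 99.45th (Lyz2) percentile of read density among tested genes. Tlr13, Tlr7 and Tlr8 were at the 42.6th, 27.1st and 21.3rd. Counts of the densest markers may be compressed, so the ratio of 1.49 may be understated. Neutrophil markers had the same order with a wider range, at 514 and 903 CPM in Itch KO against 142 and 23.9 CPM in WT. Summed markers of B cells and of plasmacytoid dendritic cells had this order too, as did the summed co-receptors and induced targets described below. The order was thus not particular to macrophages or neutrophils. The part of macrophages and of neutrophils in the differences of Tlr7, Tlr8 and Tlr13 was not tested.

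Tlr3, the receptor for double-stranded RNA, was the endosomal exception. It was at 91.9 and 68.8 CPM in the Itch KO libraries and at 83.6 and 119 CPM in the WT libraries. The groups overlapped, with WT library 2 the highest and Itch KO library 2 the lowest, and the log2 fold change was -0.34 (SE 0.25, edgeR adjusted p = 0.488). It was -0.06 without WT library 2, -0.13 without Itch KO library 2, -0.56 without Itch KO library 1 and -0.55 without WT library 1. A predicted antisense gene overlaps 7.32% of the exonic bases of Tlr3, and with the strand setting unknown its reads could not be separated.

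**Figure D2:**
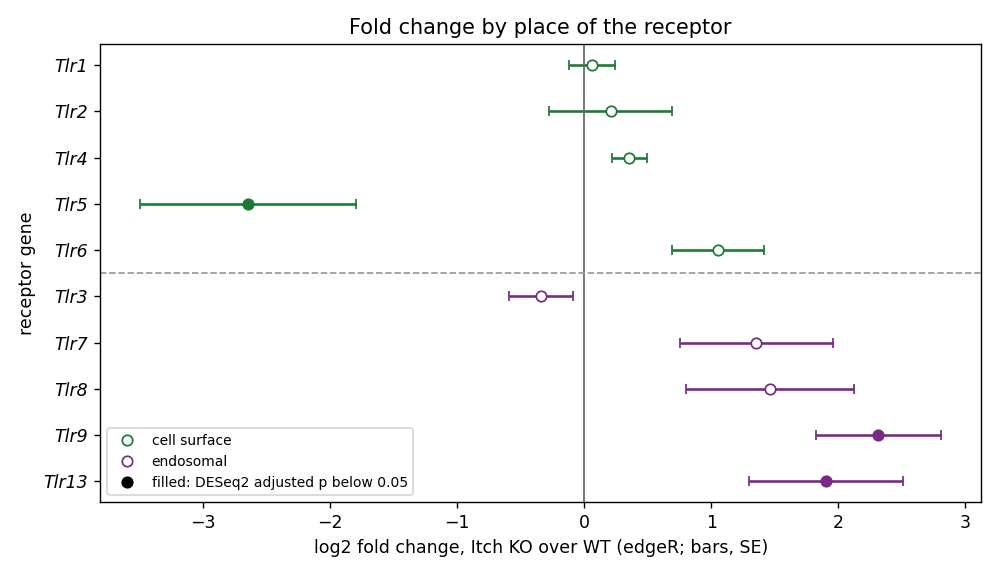
Log2 fold change of each receptor gene, Itch KO over WT, from edgeR with its standard error (bars), surface receptors above and endosomal receptors below the dashed line. Filled points have a DESeq2 adjusted p below 0.05, and Tlr5 at -2.64 and Tlr9 at 2.32 mark the ends of the range.

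As classes, the endosomal receptors had a median log2 fold change of 1.46 and the surface receptors one of 0.21, beside 0.01 over all tested genes. The endosomal median was 0.72 without Itch KO library 2 and between 1.11 and 1.98 when any other library was left out, and the surface median stayed between 0.22 and 0.35 under the same omissions. The surface median was the value of Tlr2 with all 4 libraries, and of Tlr1 or Tlr4 with a library left out. Its narrow range therefore does not show that each surface receptor was stable. Within each class the values spread widely, between -2.64 and 1.05 for the surface receptors and between -0.34 and 2.32 for the endosomal ones. The classes were compared as a description, with no test over the members.

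Levels of different genes were compared per length, as CPM per kb of exon. In Itch KO mucosa the order was Tlr2 at 35.3 ± 11.1, Tlr1 at 32.9 ± 4.95, Tlr4 at 15.7 ± 0.11, Tlr3 at 15.4 ± 3.14 and Tlr13 at 14.2 ± 8.31 CPM per kb, followed by Tlr6 at 8.30 ± 2.92, Tlr7 at 6.45 ± 3.29, Tlr9 at 6.00 ± 2.09, Tlr8 at 4.61 ± 2.73 and Tlr5 at 1.12 ± 0.57 (SD, n = 2 each). Neighbours in that order overlapped between libraries except at the steps from Tlr1 to Tlr4 and from Tlr8 to Tlr5. In WT mucosa Tlr1 led at 31.5 ± 4.5, before Tlr2 at 30.5 ± 17.5, Tlr3 at 19.5 ± 4.84, Tlr4 at 12.3 ± 1.37 and Tlr5 at 7.06 ± 5.92 CPM per kb. Below them came Tlr6 at 4.0 ± 0.09, Tlr13 at 3.80 ± 1.95, Tlr7 at 2.53 ± 1.23, Tlr8 at 1.67 ± 0.66 and Tlr9 at 1.21 ± 0.25 (SD, n = 2 each). There the steps from Tlr3 to Tlr4 and from Tlr4 to Tlr5 were the ones without overlap. By these means Tlr5 had rank 10 in Itch KO and rank 5 in WT mucosa, and Tlr13 had rank 5 in Itch KO and rank 7 in WT mucosa.

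Summed per kb, the endosomal receptors stood at 37.3 and 56.1 CPM per kb in the Itch KO libraries against 28.2 and 29.2 in the WT libraries. The surface receptors stood at 86.6 and 100.1 against 73.0 and 97.6 CPM per kb, so these sums overlapped. The endosomal share of all receptor reads per kb was 30.1% and 35.9% in the Itch KO libraries and 27.8% and 23.0% in the WT libraries, averaging 33.0 ± 4.11% in Itch KO and 25.4 ± 3.40% in WT (SD, n = 2 each). The Itch KO shares lay above the WT shares, by 7.56 percentage points between means. That difference was 4.66 points without Itch KO library 2 and 5.16 to 10.5 points when any other library was left out. With Tlr13 left out the difference was 3.02 percentage points, and with read counts not divided by length it was 6.59. Tlr3 alone made up 14.3% and 8.46% of receptor reads per kb in the Itch KO libraries against 15.9% and 18.1% in the WT libraries. Tlr13 made up 6.71% and 12.8% in the Itch KO libraries against 5.12% and 1.91% in the WT libraries, so that WT library 2 had the lowest share of Tlr13 and the highest of Tlr3.

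**Figure D3:**
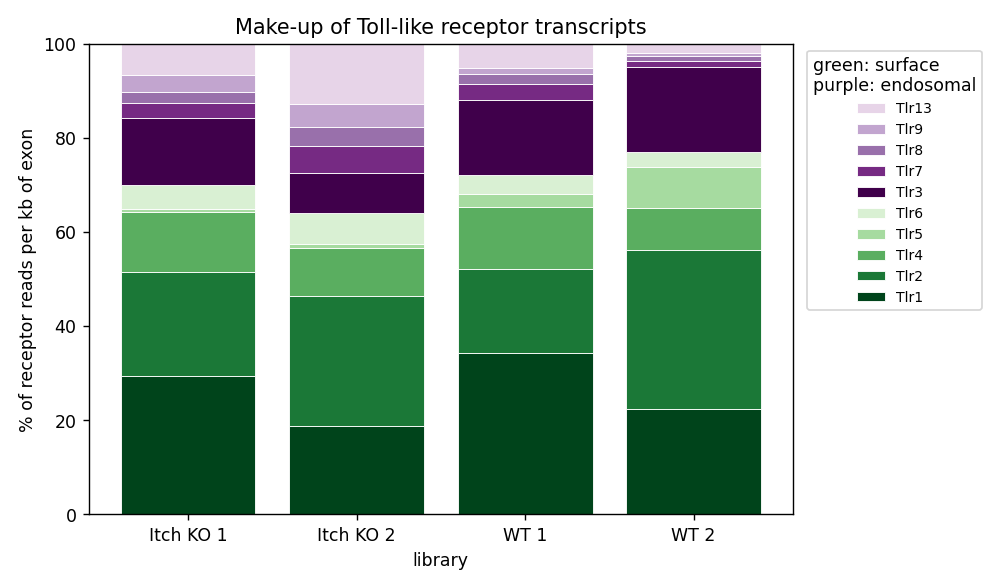
Make-up of Toll-like receptor reads per kb of exon in each library, in percent of the 10 genes, surface receptors in green and endosomal receptors in purple. The purple part is 30.1% and 35.9% in Itch KO libraries 1 and 2 and 27.8% and 23.0% in WT libraries 1 and 2.

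No gene of the series held more than 9389 counts in a library. Over the 1000 genes densest in reads per kb the count followed exonic length (rank correlation 0.949 across genes, which are not independent replicates). Because these genes were picked by reads per kb, the correlation follows in part from that choice and is no separate sign of compression. With no gene above 9389 counts, levels of genes dense in reads may still be compressed. Mean read density placed Tlr2 and Tlr1 at the 90.4th and 88.8th percentile of tested genes and Tlr3 at the 68.8th, so small differences of Tlr1 and Tlr2 may be understated. The remaining receptors were between the 21.3rd and 58.8th percentile. In the neighbourhood by pattern, taken as the distance of centred log2 CPM over the 4 libraries among 14358 genes, Tlr1 lay closest to Cttn, Map2k1 and Arhgap1 (distances 0.02, 0.03 and 0.03). Tlr3 lay closest to Epn3, Espn and Nek4 (0.03, 0.04 and 0.05). Epn3 was at 81.1 and 62.2 CPM in the Itch KO libraries and 75.2 and 106 CPM in the WT libraries. With 4 libraries such likeness is a description of a few points.

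The genes that serve the receptors were taken from 6 lists of 68 genes in all, of which 67 were listed and tested. edgeR called none of the 67, and DESeq2 called 22 higher and 0 lower, against the 5.25% and 4.81% over all tested genes. In both Itch KO libraries 41 of the 67 were higher and 9 lower, beside 30% and 26% of all tested genes. Co-receptors present ligand to the surface receptors or pair with them. Cd14, which hands lipopolysaccharide to TLR4, was at 121 and 129 CPM in the Itch KO libraries and 69.1 and 59.4 CPM in the WT libraries (log2 fold change 0.96, SE 0.14, DESeq2 adjusted p = 0.00119). Lbp, the plasma protein that loads Cd14, was at 81.1 and 93.3 CPM against 39.6 and 22.7 CPM (DESeq2 adjusted p = 0.00283). Ly96, which encodes the MD-2 subunit of the TLR4 complex, was at 21.4 and 21.1 CPM against 16.1 and 16.0 CPM, with a DESeq2 adjusted p of 0.695. The groups did not overlap for any of these 3 genes.

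Cd180 and Ly86 encode a receptor complex of B cells and macrophages related to TLR4 and MD-2. Cd180 was at 25.4 and 35.1 CPM in Itch KO against 9.28 and 6.93 CPM in WT, and Ly86 at 42.8 and 50.5 against 21.0 and 15.7 CPM, both called higher by DESeq2 (adjusted p = 0.00208 and 0.00698). Cd36, a scavenger receptor that works with TLR2 and TLR6, was lower in both Itch KO libraries, at 15.1 and 42.1 CPM compared with 55.4 and 79.0 CPM in WT, with a log2 fold change of -1.23 (SE 0.55, DESeq2 adjusted p = 0.148). In the co-receptor list DESeq2 called 4 of 6 members higher, beside 5.25% of all tested genes.

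Endosomal receptors need UNC93B1 to reach their compartment. Unc93b1 was at 160.5 and 164 CPM in the Itch KO libraries and at 101 and 101 CPM in the WT libraries. Each group was tight and the groups were apart, with a log2 fold change of 0.68 (SE 0.11, edgeR adjusted p = 0.125, DESeq2 adjusted p = 0.00631). In read density Unc93b1 was at the 95.1st percentile of tested genes and Cd14 at the 97.7th. Counts may be compressed there, so spread and fold change of both genes may be understated. The chaperone genes that fold most of the receptors were also higher in both Itch KO libraries without a call. Cnpy3 was at 88.2 and 103 against 63.8 and 73.8 CPM (DESeq2 adjusted p = 0.305), and Hsp90b1 at 204 and 185 against 155 and 137 CPM (DESeq2 adjusted p = 0.233). In this list of trafficking and processing genes DESeq2 called 3 of 14 higher, beside 5.25% of all tested genes. The 2 besides Unc93b1, named after their values were seen, were Slc15a3, a lysosomal peptide transporter gene (54.2 and 118 against 15.5 and 7.58 CPM), and Pld4, an endolysosomal nuclease gene (72.1 and 100.3 against 34.9 and 22.9 CPM).

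The shared adaptor Myd88 was at 91.3 and 104 CPM in Itch KO and 65.4 and 61.6 CPM in WT libraries, with no overlap (log2 fold change 0.62, SE 0.13, edgeR adjusted p = 0.142, DESeq2 adjusted p = 0.0941). Tirap, which bridges MyD88 to TLR2 and TLR4, overlapped at 74.8 and 66.4 against 91.1 and 73.3 CPM. Ticam1, the gene of the TLR3 adaptor TRIF, was at 88.3 and 79.4 against 88.6 and 95.2 CPM. Ticam2, the gene of the TRAM adaptor of TLR4, was at 7.74 and 12.5 against 4.59 and 2.04 CPM without a call. Sarm1 was low in every library, at 1.35 and 5.37 against 2.24 and 3.02 CPM. Pik3ap1, a B cell and myeloid adaptor of phosphoinositide 3-kinase, was the 1 of 6 adaptors that DESeq2 called. Over all tested genes DESeq2 called 5.25% higher. Pik3ap1 was at 31.3 and 59.6 CPM in Itch KO and 13.2 and 13.0 CPM in WT libraries.

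**Figure D4:**
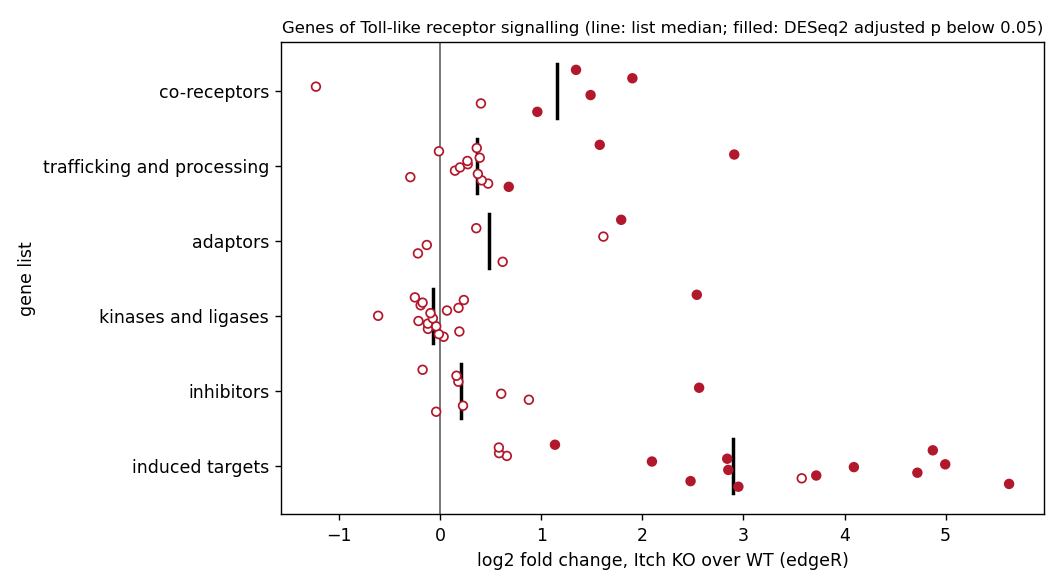
Log2 fold change, Itch KO over WT (edgeR), of the tested genes in 6 lists of Toll-like receptor signalling, with the median of each list as a line and filled points for a DESeq2 adjusted p below 0.05. The medians run from -0.07 for kinases and ligases to 2.90 for induced targets.

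The kinases and ubiquitin ligases downstream had a median log2 fold change of -0.07 over 17 genes. In both Itch KO libraries 4 were higher and 5 lower, which is near the 30% and 26% of all tested genes. DESeq2 called 1 of the 17 higher, beside 5.25% of all tested genes. This was Btk, a kinase of B and myeloid cells, at 51.0 and 72.9 CPM in Itch KO against 10.1 and 11.2 CPM in WT. The highest of the list, Ikbkb and Tab2, were at 187 and 186 against 160 and 169 CPM and at 170 and 164 against 181 and 171 CPM. Inhibitors had a median of 0.20 over 8 genes, of which DESeq2 called 1 higher, beside the same 5.25%. It was Il1rl1, the interleukin-33 receptor gene, at 106 and 244 against 44.6 and 15.1 CPM. Irak3, a macrophage brake on receptor signalling, was at 41.5 and 72.9 against 24.8 and 37.5 CPM, and Tnfaip3, which encodes the deubiquitinase A20, at 180 and 182 against 148 and 89.4 CPM, neither called. Tollip overlapped at 140 and 129 against 135 and 141 CPM, as did Sigirr at 93.1 and 70.7 against 60.8 and 79.1 CPM.

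Genes known to be induced through these receptors had the largest median, 2.90 over 16 tested members. All 16 log2 fold changes were positive, beside 8587 of the 16956 tested genes. DESeq2 called 12 of the 16 higher, beside 5.25% of all tested genes, while edgeR and limma voom called none. Other cytokine receptors induce most of these genes too. Nfkbiz, a nuclear NF-kB cofactor, was at 172 and 169 CPM in Itch KO against 127 and 101 CPM in WT, and Zc3h12a, an RNase that limits cytokine transcripts, at 171 and 137 against 103 and 103 CPM, neither called (DESeq2 adjusted p = 0.0948 and 0.0914). Irg1, now named Acod1 and chosen after its values were seen, had the smallest DESeq2 adjusted p of the list, 7.34e-13, at 90.3 and 185 against 7.36 and 2.20 CPM. It encodes the enzyme of itaconate synthesis in activated macrophages.

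**Figure D5:**
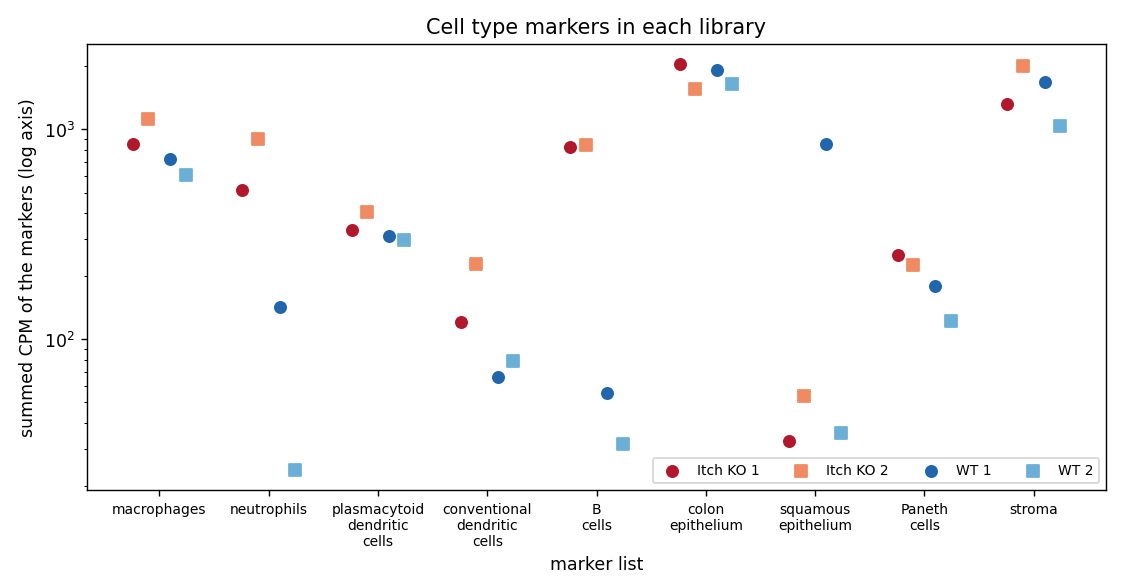
Summed CPM (log axis) of 9 lists of cell type markers in each library, Itch KO libraries left of WT libraries. B cell markers are at 826 and 846 CPM in Itch KO against 55.7 and 31.9 CPM in WT, while colon epithelium markers overlap.

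Markers of further cell types were summed to set beside the receptors. Of all tested genes 30% were higher and 26% lower in both Itch KO libraries, the base for the counts of markers below. Conventional dendritic cell markers were at 121 and 228 CPM in the Itch KO libraries and 66.3 and 79.1 CPM in the WT libraries. Of the 8 markers 4 were apart and higher in Itch KO, with Itgax, the highest, at 57.6 and 87.5 against 30.8 and 30.8 CPM. The other 4, Zbtb46, Xcr1, Clec9a and Cd209a, overlapped, with log2 fold changes from -0.25 to 0.68, so the list did not move as a whole. Stromal markers overlapped at 1326 and 2001 against 1681 and 1037 CPM, with 7 of 8 markers overlapping and Col3a1 at 374 and 469 against 438 and 272 CPM. Paneth and deep crypt markers were at 253 and 226 against 179 and 123 CPM. Of the 5 tested markers 2 were apart and higher in Itch KO, beside the 30% of all tested genes. Among neutrophil markers 9 of 10 tested genes were higher in both Itch KO libraries, with Csf3r at 106 and 187 against 31.4 and 3.75 CPM, while Elane and Mpo, genes of immature neutrophils, were too low to test. The colon epithelium marker with the highest level, Cdh1, overlapped at 387 and 285 against 376 and 296 CPM.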

How the data were processed

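RNA sequencing of colonic mucosa gave 2 Itch KO and 2 WT libraries. The files the authors deposited hold raw counts for each gene, 1 file per library. HTSeq 0.6.1, TopHat2, CASAVA 1.8.2 and SAMtools 0.1.19, with mm10 and GRCm38, are listed in the submitters' processing notes. The strand setting is not given in the sources used here. WT library 1 lists 19308 genes and the others 39179, and tests used the shared 19308. Reads outside genes, 18.2% to 23.0% of the total in the 3 files that list them, were left out.

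Counts were filtered with filterByExpr (minimum count 10), leaving 16956 genes, scaled by TMM and tested with edgeR 4.0.16 (R 4.3.3), quasi-likelihood, robust, group as the only term, two-sided, with Benjamini-Hochberg adjustment at 0.05 over all tested genes. The standard error is the log2 fold change divided by the root of F. DESeq2 1.42.0 and limma 3.58.1 (voom) were alternatives. The code was tested on simulated counts with 200 changed genes. Exonic length is the union of GENCODE M21 exons (GRCm38). One count was worth 0.0815 to 0.123 CPM. Genes named by plan were all members, Itch, all co-receptors and adaptors, Unc93b1, Cnpy3 and Hsp90b1, and the inhibitors Irak3, Sigirr, Tollip and Tnfaip3. The plan also took the highest 2 of the kinase and target lists, the highest of each marker list and the nearest genes by pattern. Any other gene, such as Il1rl1 and Btk, was chosen after its values were seen. Members and lists were chosen with earlier results of these data known. Replicates of a group differed by more than sampling noise (chi-square per degree of freedom 25.0 for Itch KO and 32.9 for WT).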

Additional observations from a re-analysis of the deposited data

How the results depend on the processing

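edgeR called 0 receptor genes, 0 pathway genes and 0 of all tested genes in each direction under RLE and upper quartile scaling, without a filter on low counts, at a mean of at least 5 CPM, with a replicate block and with each library left out, and limma voom also called 0. DESeq2 called 891 genes higher and 815 lower, of them 2 receptors higher and 1 lower, and 22 pathway genes higher. With each library left out, an alternative chosen after seeing the data, DESeq2 called 670 genes higher and 567 lower without Itch KO library 1, 153 and 273 without Itch KO library 2, 806 and 357 without WT library 1 and 580 and 306 without WT library 2. Pathway genes called higher then numbered 16, 4, 19 and 14 in the same order, receptors 0 to 2 higher and 0 to 1 lower, and 1 pathway gene was called lower without Itch KO library 2. The median log2 fold change of the endosomal receptors was 0.72 to 1.98 with a library left out, and it and the surface median kept their sign in all settings run.

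The sign turned for 2 receptors, each time with a library left out and never with another scaling, filter or tool on all 4 libraries. For Tlr1 the log2 fold change was -0.10 without Itch KO library 1 and -0.08 without WT library 2 by edgeR, up to 0.23 without WT library 1, and -0.11 in both cases by DESeq2, with a range of -0.11 to 0.21 by DESeq2. For Tlr2 it was -0.14 without Itch KO library 2 and -0.26 without WT library 1 by edgeR, up to 0.96 without WT library 2, and -0.15 and -0.28 by DESeq2, up to 0.93. The cause was not tested. Replicate numbers in the titles do not say that libraries were paired, and same-numbered libraries had a correlation of deviations of 0.05 across 16956 genes. With the replicate block the number of receptors called was 0, and the endosomal median was 1.38. With 2 libraries a group and a biological coefficient of variation of 34.8%, a missing call does not show equal levels.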
